A study of Mus musculus with 4 samples.

Results

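Among the 48 genes in the deposited table, 7 are grouped here as striated muscle genes: Csrp3, Trim63, Myo18b, Abra, Cacng1, Ucp3 and Asb18. They were picked by symbol from a table that the authors had already reduced to genes differing between mimic-treated and control cells, so they were selected on the very values described below. The comparison of mimic with control is therefore given as a description, with no test. RNA came from HT22, an immortalised line derived from mouse hippocampal neurons, genotype WT, in 2 groups of 2 libraries. In the first group, HT22 cells received a mimic of the microRNA miR-712-3p, a synthetic duplex that raises its amount, which was premixed with reagent (15 min) and then added for 24 h, with RNA taken 24 h after the next medium change. In the second, control cells had their medium changed at the same times, with neither reagent nor a control RNA, so the effect of the mimic and that of transfection cannot be told apart. Mimic replicate 2 carries the treatment label miR-712-4p, while its title and the series describe the same transfection as for mimic replicate 1. The column name of the control group, NC, is not explained. Library totals recovered from the values were between 29873090 and 39292645 reads or read pairs. The free-text descriptions of 3 of the 4 libraries number the cell line differently from the cell line field, which reads HT22 in all 4. Independent repeats are stated for the study's experiments as a whole, though not which culture gave each of these libraries, so the spread between replicates may be technical. The labelled cell type, neuron, could not be checked, because 0 of the 20 neuronal markers looked for are in the table.

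Striated muscle contracts through sarcomeres, in which thick myosin filaments slide along thin actin filaments anchored at the Z-disc. Depolarisation of the membrane reaches the contractile apparatus through a voltage-gated calcium channel that is coupled to calcium release, and mitochondria supply the energy. Muscle also has its own ubiquitin ligases, which mark contractile proteins for degradation when muscle wastes. The 7 genes cover parts of each of these systems, and none of them is a standard marker of neurons.

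Of the 7 genes, 3 encode proteins of the Z-disc or of actin binding, and both mimic libraries were above both control libraries for each. Csrp3 encodes muscle LIM protein, a Z-disc protein linked to the sensing of stretch and to heart muscle disease. Its level was 1.57 and 0.915 FPKM (fragments scaled for gene length and library total) in mimic replicates 1 and 2, against 0.523 and 0.251 FPKM in control replicates 1 and 2. These values rest on 131 and 96 reads with the mimic and on 49 and 20 reads in the control. Both mimic libraries lay above both control libraries, with a ratio of mean FPKM of 3.22 and the lower mimic library at 1.75 times the higher control library. Csrp3 averaged 1.24 ± 0.467 FPKM with the mimic and 0.387 ± 0.193 FPKM in the control (SD, n = 2 each).

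Myo18b, an unconventional myosin that mouse and zebrafish muscle need to build sarcomeres, had 0.498 and 0.338 FPKM with the mimic against 0.264 and 0.138 FPKM in the control. It is the longest of the 7 transcripts, so the low FPKM still corresponds to 166 and 142 reads in mimic libraries against 99 and 44 reads in control libraries, 451 in all. The groups did not overlap, but the lower mimic library exceeded the higher control library by a factor of only 1.28, the smallest gap of the 7 genes. The ratio of mean FPKM was 2.08.

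Abra, also called STARS, binds actin and through it promotes the activity of serum response factor. Its FPKM was 1.23 and 1.06 in the mimic libraries against 0.776 and 0.292 in those of the control, from 114 and 124 reads against 81 and 26. Here the mimic libraries were close to each other and the control libraries were not. The ratio of mean FPKM was 2.14, and single pairs of libraries gave ratios between 1.37 (mimic replicate 2 over control replicate 1) and 4.21 (mimic replicate 1 over control replicate 2).

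**Figure D1:**
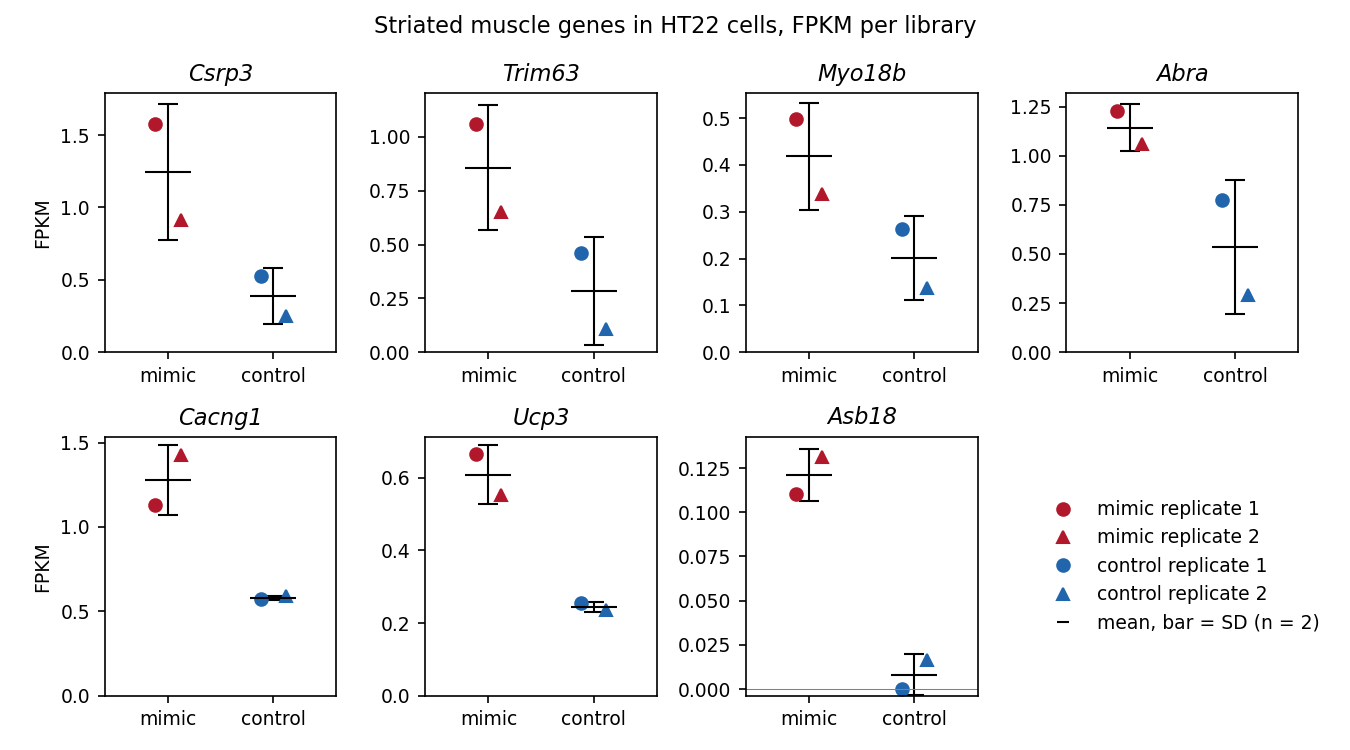
FPKM of the 7 striated muscle genes in each library (vertical axes, each gene on its own scale), with mimic libraries in red, control libraries in blue, and mean ± SD in black (n = 2). The mimic libraries lie above the control libraries for all 7 genes, and the control libraries are far apart for Trim63 (0.462 and 0.106) but close for Cacng1 (0.571 and 0.590).

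Ubiquitin ligase components were Trim63 and Asb18. Trim63, or MuRF1, is a ligase that marks thick filament proteins and whose transcript is widely used as a sign of muscle atrophy. It had 1.06 and 0.654 FPKM with the mimic against 0.462 and 0.106 FPKM in the control, or 94 and 73 reads against 46 and 9. Control replicate 2 was the lowest by far, and the ratio between single libraries ran from 1.42 to 10.0. Trim63 averaged 0.858 ± 0.289 FPKM with the mimic and 0.284 ± 0.252 FPKM in the control (SD, n = 2 each), a ratio of 3.02, and the SD of the control was 88.6% of its mean.

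Asb18 belongs to a family of ankyrin repeat proteins whose SOCS box recruits a cullin ubiquitin ligase. It was the least abundant of the 7 genes, with 0.110 and 0.131 FPKM in mimic replicates 1 and 2, against 0 and 0.0164 FPKM in control replicates 1 and 2. This amounts to 14 and 21 reads in the mimic libraries and to 0 and 2 reads in the control libraries. A count of 0 allows up to 3 reads, which for Asb18 in control replicate 1 is 0.0210 FPKM. With the libraries of each group pooled, the ratio of reads scaled by depth was 16.2. It rests on 2 reads in the control, so its size is very uncertain. The limit for a count of 0 and the counting intervals given below hold counting error alone, without variation between cultures. PCR copies of 1 molecule are counted as separate reads, so even the counting error may be understated.

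For Cacng1 and Ucp3 the control libraries lay close together. Cacng1 encodes the gamma-1 subunit of the skeletal muscle L-type calcium channel. It had 1.13 and 1.43 FPKM with the mimic against 0.571 and 0.590 FPKM in the control, from 44 and 70 reads against 25 and 22. Ucp3 is a carrier of the mitochondrial inner membrane found mainly in skeletal muscle and brown fat. It had 0.666 and 0.552 FPKM with the mimic against 0.255 and 0.235 FPKM in the control, from 65 and 68 reads against 28 and 22. The mean of Cacng1 was 1.28 ± 0.209 FPKM with the mimic and 0.580 ± 0.0131 FPKM in the control, and that of Ucp3 was 0.609 ± 0.0804 and 0.245 ± 0.0141 FPKM (SD, n = 2 each). Their ratios of mean FPKM were 2.20 and 2.49. For Ucp3 all 4 pairs of a mimic and a control library gave a ratio of at least 2, the lowest being 2.17.

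Both mimic libraries lay above both control libraries for 7 of the 7 genes, while 54.2% of all 48 listed genes did so. Nothing is read from this difference, because the table was selected on the same contrast and the 7 genes were taken from its higher part. Of the 48 genes, 29 had a higher mean with the mimic and 19 a lower one. The median ratio of mean FPKM was 2.49 for the 7 genes and 4.46 for the 22 other higher genes, of which 5 had no read in the control. A 2-sided exact permutation test of 2 against 2 libraries cannot go below p = 0.333.

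The 7 transcripts were scarce in HT22 cells. Their median mean FPKM over the 4 libraries was 0.571, against 0.158 for the 41 other listed genes, and 3 of them stayed below 1 FPKM in every library. By mean FPKM they took places 7 (Cacng1), 9 (Abra), 10 (Csrp3), 15 (Trim63), 19 (Ucp3), 23 (Myo18b) and 36 (Asb18) among the 48 listed genes. Within the mimic group, the order of mean FPKM was Cacng1, Csrp3, Abra, Trim63, Ucp3, Myo18b and Asb18. The libraries of neighbouring genes overlapped from Cacng1 down to Ucp3, whereas Ucp3 lay above Myo18b and Myo18b above Asb18 in both mimic libraries. In the control the order was Cacng1, Abra, Csrp3, Trim63, Ucp3, Myo18b and Asb18, and only Asb18 was set apart from the gene before it. In bulk RNA, a few cells with much of a transcript and many cells with little of it cannot be told apart.

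Added up, the 7 genes had 6.27 and 5.08 FPKM with the mimic against 2.85 and 1.63 FPKM in the control. The groups did not overlap. The mean sum was 5.67 ± 0.845 FPKM with the mimic and 2.24 ± 0.865 FPKM in the control (SD, n = 2 each), a ratio of 2.53. Without control replicate 1 this ratio was 3.49, and without control replicate 2 it was 1.99. The makeup of the sum differed between libraries. Csrp3 made up 25.1% and 18.0% of it in mimic replicates 1 and 2, against 18.4% and 15.4% in control replicates 1 and 2. Cacng1 made up 18.0% and 28.1% with the mimic, and its largest share, 36.2%, was in control replicate 2, the library with the smallest sum. Trim63 was low in that library, at 6.51% of the sum in control replicate 2 against 16.2% in control replicate 1.

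**Figure D2:**
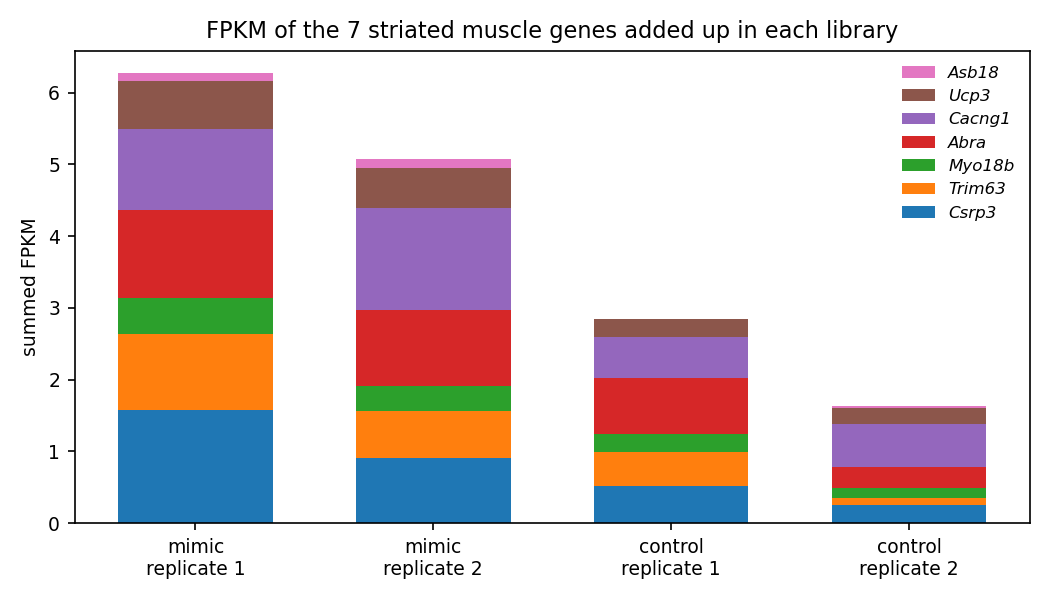
FPKM of the 7 genes stacked into 1 bar per library (vertical axis, summed FPKM), in the order mimic replicates 1 and 2 and control replicates 1 and 2. The sum was 6.27 and 5.08 in the mimic libraries against 2.85 and 1.63 in the control libraries, and Cacng1 took the largest share, 36.2%, in control replicate 2.

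Replicates of 1 group were also set against each other, as a description of the spread. This is not independent of the choice of genes, because the authors kept genes by an adjusted p, which depends on the spread between replicates. Reads of replicate 1 and replicate 2 were compared with the library totals by a 2-sided exact binomial test, adjusted by the Benjamini-Hochberg method over all 85 tests that the 48 genes allowed. Within the mimic group, 3 of the 7 genes differed between replicates by more than counting error, namely Csrp3, Trim63 and Myo18b, against 21.4% of the 42 genes tested. Within the control group the count was 4 of 7, namely Csrp3, Trim63, Myo18b and Abra, against 20.9% of the 43 genes tested. Each of these differences had the higher value in replicate 1. Among the other listed genes that differed, 3 of 6 within the mimic group and 4 of 5 within the control had that direction. Of all listed genes that differed, 6 of 9 within the mimic group and 8 of 9 within the control were higher in replicate 1, and of all genes tested 25 of 42 and 32 of 43 were. Among the other listed genes, 6 of 35 differed within the mimic group and 5 of 36 within the control. The 7 genes had a median of 222 reads over the 4 libraries and the 22 other higher genes a median of 65.5. The latter leaves out the listed genes with a lower mean, which are in the counts above. More reads allow smaller differences to be detected, and the part of this in the counts was not tested.

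In the mimic group, replicate 1 was 1.72 times replicate 2 for Csrp3 (95% counting interval 1.31 to 2.26), 1.62 times for Trim63 and 1.47 times for Myo18b. Abra stood at 1.16 times there, with an interval from 0.891 to 1.51. In the control the ratio was 4.36 for Trim63 (interval 2.11 to 10.1), 2.66 for Abra (interval 1.69 to 4.30), 2.09 for Csrp3 and 1.92 for Myo18b. Among the 7 genes that of Trim63 was the largest, while 2 other listed genes that passed the test had a larger ratio in the control, Entpd4 at 14.1 and Srp54b at 5.50 (named here after their values were seen). Cacng1, Ucp3 and Asb18 did not pass the test in either group. For Ucp3, the ratio of replicate 1 to replicate 2 was 1.21 with the mimic and 1.08 in the control, with intervals from 0.845 to 1.72 and from 0.599 to 1.99. For Cacng1 it was 0.793 (interval 0.531 to 1.17) with the mimic and 0.969 (interval 0.524 to 1.80) in the control. In the control both intervals include the 1.47 seen for Myo18b with the mimic, and so does the interval of Ucp3 with the mimic. A difference of that size between those libraries is therefore not excluded for these genes.

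**Figure D3:**
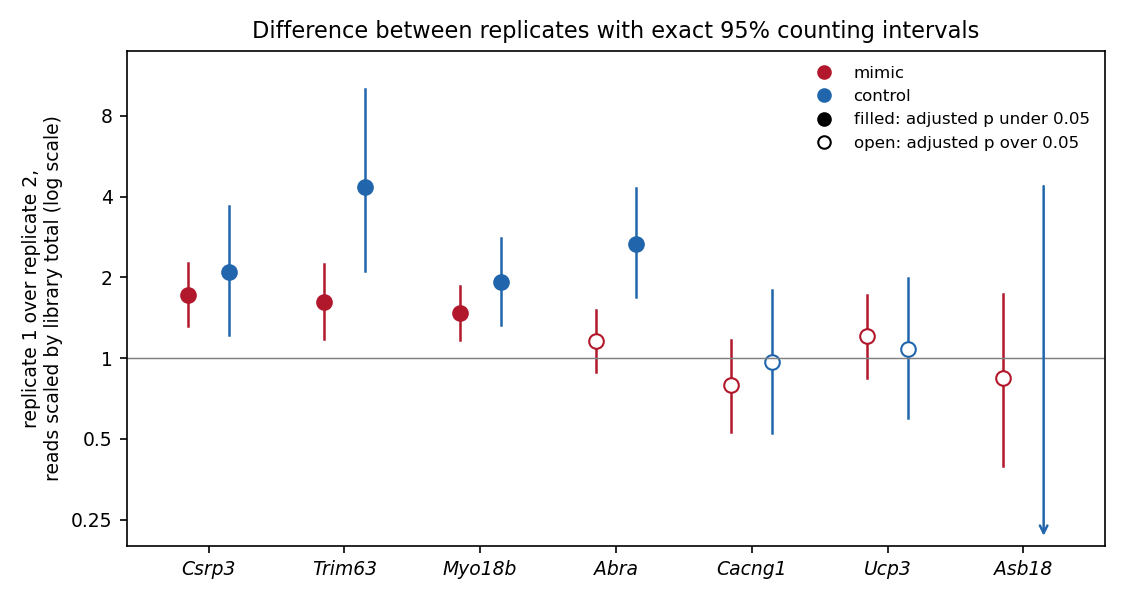
Replicate 1 over replicate 2 within the mimic group (red) and the control group (blue) for each gene, as reads scaled by library total on a log axis, with exact 95% counting intervals as lines, and filled points where the adjusted p was under 0.05. Csrp3, Trim63 and Myo18b lie above 1 in both groups and Abra in the control, while Cacng1 and Ucp3 lie near 1, and the arrow marks Asb18 in the control, with 0 reads in replicate 1.

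The ratios of mimic to control depended on which control library was used. Without control replicate 1, the ratio of mean FPKM was 8.09 for Trim63, 4.97 for Csrp3 and 3.92 for Abra, in place of 3.02, 3.22 and 2.14. Without control replicate 2 it was 1.86 for Trim63, 2.38 for Csrp3 and 1.47 for Abra. For Myo18b the ratio was 1.58 when control replicate 2 was left out and 3.04 when control replicate 1 was. Cacng1 stayed between 1.95 and 2.46 and Ucp3 between 2.25 and 2.72 whichever library was left out. The Asb18 ratio of 14.7 became 7.35 without control replicate 1, and without control replicate 2 no read was left in the control.

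**Figure D4:**
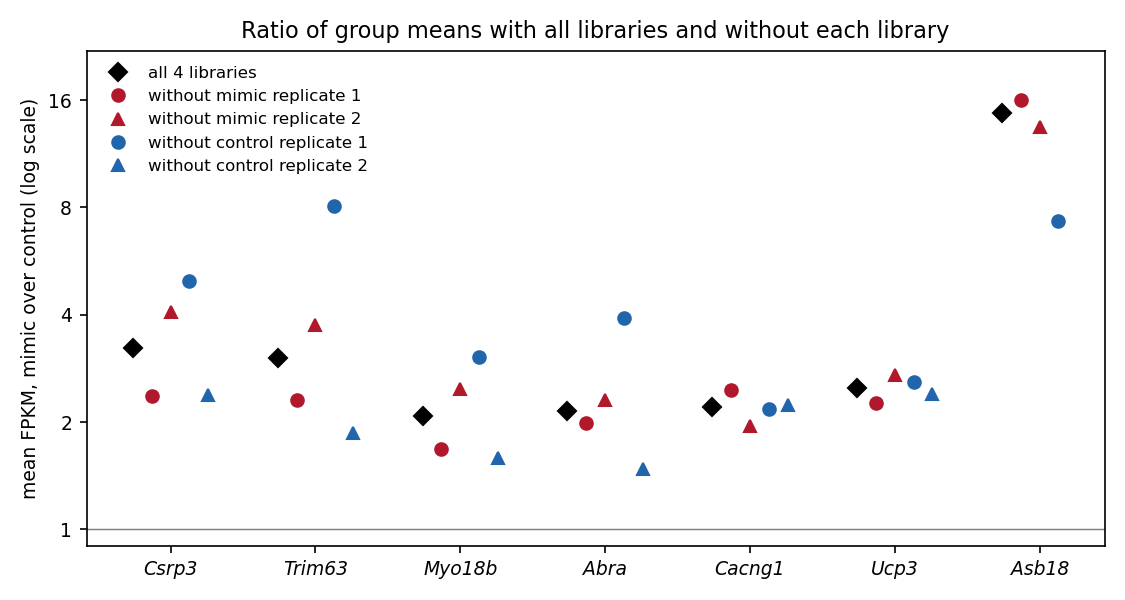
Ratio of mean FPKM, mimic over control (vertical log axis), for each gene with all 4 libraries (black diamonds) and without each library in turn (red for a mimic library left out, blue for a control library left out). The ratios of Trim63 spread from 1.86 to 8.09, while those of Ucp3 spread from 2.25 to 2.72.

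The table held no further gene from the lists of striated muscle genes. These lists name 152 genes by role, and 7 of them are in the table, all of them the genes described here. None of the 23 thick filament genes (myosin heavy and light chains, titin), of the 18 thin filament genes (skeletal and cardiac actin, troponins) or of the 22 muscle transcription factors and regulators (Myod1, Myog, Mef2c) was listed. Of 27 Z-disc and costamere genes 3 were listed, of 25 genes of excitation and calcium handling 1, of 19 genes of ubiquitin ligases and protein turnover 2, and of 18 genes of muscle metabolism 1. None of the 22 close relatives of the 7 genes was listed, among them Csrp1 and Csrp2, Trim54 and Trim55, Myo18a and Ucp2. The level of a gene outside the table is not known here, so these counts do not say that it was unchanged or not expressed.

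Marker lists of other cell types had single genes in the table, each with a higher mean in the mimic libraries. Of 9 erythroid genes there was Hbb-bs, at 3.89 and 3.68 FPKM with the mimic against 1.23 and 0.785 FPKM in the control. The endothelial list of 6 genes had Gja4, with 2 and 12 reads in mimic libraries and 0 in both control libraries. The adipocyte list of 5 genes had Pparg, with 16 and 6 reads in mimic libraries against 2 and 0 in control libraries. The lists for astrocytes, microglia, oligodendrocytes, smooth muscle and fibroblasts had none. Whether cells of another type contribute to the values of the 7 genes was not tested.

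Listed genes with the most similar pattern over the 4 libraries were sought by the distance between profiles of log2(FPKM + 0.1), each centred on its own mean. The nearest to the mean profile of the 7 genes were Serpina3n (root mean square distance 0.0824), 7SK (0.101) and Smoc2 (0.167). Among the 7 genes this distance ran from 0.173 for Ucp3 and 0.180 for Myo18b to 0.380 for Trim63. Serpina3n encodes an extracellular inhibitor of proteases, and its reads were 12 and 10 in mimic libraries against 2 and 0 in control libraries. Smoc2, a secreted matrix protein, had 31 and 38 reads in mimic libraries against 14 and 3 in control libraries. For 7SK, a non-coding RNA that restrains transcription elongation, FPKM was 6.11 and 5.46 in the mimic libraries against 2.76 and 2.22 in those of the control. On this scale these 3 genes were nearer to the mean profile than any of the 7 genes was. Serpina3n had 0.187 and 0.123 FPKM with the mimic against 0.0276 and 0 FPKM in the control. Smoc2 had 0.143 and 0.139 FPKM against 0.0575 and 0.0144 FPKM. Such values lie near or below the added 0.1, which shrinks their differences, so the distances of these genes depend on it.

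By position the 7 genes were scattered, on 6 chromosomes of GRCm38. Csrp3 (ENSMUSG00000030470, chromosome 7, 48830398 to 48848033, minus strand) and Ucp3 (ENSMUSG00000032942, chromosome 7, 100472990 to 100486432, plus strand) share a chromosome, far apart. The other genes are Trim63 (ENSMUSG00000028834, chromosome 4, 134315120 to 134329629, plus strand), Myo18b (ENSMUSG00000072720, chromosome 5, 112688876 to 112896362, minus strand), Abra (ENSMUSG00000042895, chromosome 15, 41864076 to 41869720, minus strand), Cacng1 (ENSMUSG00000020722, chromosome 11, 107703218 to 107716522, minus strand) and Asb18 (ENSMUSG00000067081, chromosome 1, 89950220 to 90014666, minus strand). All are annotated as protein-coding. Ucp3 ends 6905 bases before its relative Ucp2 begins on the same strand, and Cacng1 lies 15835 bases from its relative Cacng4. None of the 3 nearest protein-coding genes of each was in the table.

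Near-identical sequence in other genes could divert reads, so the longest coding transcript of each gene was searched. At 95% identity or more, no stretch of at least 50 bases of Csrp3, Trim63, Cacng1 or Ucp3 matched a transcript of another gene. Of the Myo18b transcript 3.14% was matched, by the antisense gene 1700095B10Rik, whose exons share 248 bases with it. Of the Asb18 transcript 12.9% was matched, almost all of it by D10Wsu102e. The Asb18 values are uncertain for this reason, and also because the length behind its FPKM, 4070 bases, was not the 3952 bases of the annotation.

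Sequence upstream of the start sites was available for 4 of the 7 genes in the RefSeq promoter table (GRCm38.p6). The 150 bases before the start are shown as a description. That these genes are higher together follows from how they were chosen. Capitals mark the motifs searched on both strands, which were the E-box CANNTG bound by muscle and many other basic helix-loop-helix factors, the MCAT motif CATTCC, the TATA motif TATAAA, the MEF2 site and the CArG box bound by serum response factor. The stretches lie at chr7:48848052-48848201 (Csrp3, minus strand), chr4:134314970-134315119 (Trim63, plus strand), chr7:100472841-100472990 (Ucp3, plus strand) and chr1:90014667-90014816 (Asb18, minus strand).
Csrp3: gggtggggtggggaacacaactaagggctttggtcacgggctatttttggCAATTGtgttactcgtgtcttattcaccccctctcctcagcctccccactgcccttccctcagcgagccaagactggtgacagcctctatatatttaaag
Trim63: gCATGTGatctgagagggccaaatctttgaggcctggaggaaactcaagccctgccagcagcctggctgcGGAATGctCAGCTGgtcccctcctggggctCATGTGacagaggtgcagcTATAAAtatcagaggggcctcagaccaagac
Ucp3: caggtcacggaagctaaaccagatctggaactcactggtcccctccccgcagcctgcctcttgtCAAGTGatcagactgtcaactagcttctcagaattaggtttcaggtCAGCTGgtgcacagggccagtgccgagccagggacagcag
Asb18: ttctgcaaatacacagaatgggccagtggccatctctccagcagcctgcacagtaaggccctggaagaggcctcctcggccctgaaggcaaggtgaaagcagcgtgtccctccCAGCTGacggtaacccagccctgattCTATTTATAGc

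Over the full 250 bases before the start, each of the 4 genes had at least 1 E-box, which 66.2% of 32851 promoters also had. Csrp3 had 4, Trim63 and Ucp3 had 3 each and Asb18 had 1, and a second Csrp3 start further downstream also had 4. The letters CAGCTG stood at positions -72 to -67 in Trim63, -40 to -35 in Ucp3 and -37 to -32 in Asb18, counted backwards from the start. No E-box of Csrp3 had these letters. They were picked after the matches were seen, and their share over all promoters was not counted, so nothing is read from them. Trim63 alone had an MCAT motif (12.6% of promoters) at -80 to -75, and a forward TATA motif (12.4% of promoters, either strand) at -31 to -26. Asb18 had a MEF2 site (2.92% of promoters) at -11 to -2, which overlaps a TATA motif on the other strand. No CArG box (1.47% of promoters) was found in these 4 windows. A match describes letters only and does not show that a factor binds there.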

How the data were processed

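Messenger RNA of 4 HT22 libraries was analysed. The authors captured mRNA on oligo(dT) beads, removed adapters and poor reads, aligned with HISAT2 and compared groups with DESeq2. Versions, the read counter, the build and the annotation were not found in the labels or methods (not given in the sources used here). Deposited was a table of 48 genes that the authors had selected. Among the 37 genes with both group means above 0, these differed by at least 2.09-fold. Its columns of the authors' fold changes and p-values were not used.

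The authors deposited 1 FPKM value per library, with no unit named, and a mean normalised count signal per group. Multiplied by the exon length in GENCODE M21 and 1 total per library, the FPKM values gave whole reads (tolerance 0.01) for 44 genes. The other 4, Asb18 included, were recovered through the deposited group means, which all recovered reads matched within 0.0054. The recovery and the binomial test were tested on simulated data.

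Groups follow the sample titles. The 7 genes and the gene lists were chosen with earlier results of these data known. Genes were named by rule: the 7 genes, listed genes on the gene lists, and the 3 most similar profiles. No count model was fitted to a table selected by outcome. Alternatives were the unit, the pseudocount (0.1 or 1), a filter at 0.1 FPKM and leaving out each library. Copies were sought with blastn 2.17.0 (the result for Abra is not reported here), and statistics used scipy 1.17.1. Seed matches to miR-712-3p were not searched here.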

Additional observations from a re-analysis of the deposited data

How the results depend on the processing

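The median ratio of mean FPKM over the 7 genes was 2.49, and leaving out 1 library at a time moved it between 2.24 (without control replicate 2) and 3.92 (without control replicate 1). With size-factor-scaled counts it was 2.49, and on the log2(FPKM + 0.1) and log2(FPKM + 1) scales, which add a pseudocount and also average logs in place of levels, it was 2.05 and 1.41. When the lower mimic library had to be at least 1.5 times the higher control library, 4 genes remained separated instead of 7. These were Csrp3, Cacng1, Ucp3 and Asb18. At a mean of at least 0.1 FPKM 6 did, since Asb18 is left out there. Neither count was made over all listed genes, so nothing is read from how many of the 7 genes passed. Without control replicate 2, Asb18 has no finite ratio, as its control is listed at 0. The median of 2.24 for that setting ranks Asb18 as the highest of the 7 genes. Leaving Asb18 out there would lower that median. For single genes, 5 of 55 values under alternatives moved by more than the spread between replicates. That spread is wide where replicates are noisy. For Asb18, a ratio of 14.7 against 1.11 on the log2(FPKM + 1) scale was not counted as moved. The count therefore does not say that the ratios are robust. The 55 values include scaling to reads per library total, which leaves each ratio as it is by construction. Since the groups overlap for none of the 7 chosen genes, leaving out a library could not turn a direction. Replicates of 4 genes differed beyond counting error, as also with size factors and without adjustment for multiple tests. No paired analysis was possible because the comparison of mimic with control comes from no test that a block could enter. As a description, libraries with the same replicate number gave ratios of 3.01 and 3.65 for Csrp3, 2.30 and 6.17 for Trim63 and 1.89 and 2.45 for Myo18b. The ratios were 1.58 and 3.63 for Abra, 1.98 and 2.42 for Cacng1 and 2.61 and 2.35 for Ucp3. Asb18 had 7.98 for replicate 2 and no ratio for replicate 1, whose control had no read. No label says that a number marks a shared culture or day. With 2 libraries per group, the SDs themselves are imprecise, and Asb18 rests on 37 reads in all.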
